A study of Mus musculus with 6 samples.

Results

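The FXYD genes encode small regulators of the sodium pump, and 6 of them (*Fxyd1*, *Fxyd2*, *Fxyd3*, *Fxyd5*, *Fxyd6* and *Fxyd7*) were followed here in mouse retina. They were taken by symbol from the 31169 genes of the deposited count table, with earlier results of these data known. All 6 were among the 17707 genes with enough reads to be tested. The study asked how microbead-induced elevation of ocular pressure, a model of glaucoma, alters the handling of ions by retinal ganglion cells, the output neurons of the retina. Polyadenylated RNA was sequenced from 3 saline-injected and 3 microbead-injected whole retina samples. All came from male C57BL/6 mice that were 1 month old at injection and 2 months old at collection, 4 weeks later. Microbead eyes received polystyrene beads 15 µm in diameter in the anterior chamber and saline eyes received the same volume of fluid, so that injection itself was shared by both groups. No genetic change was carried by either group.

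Mice were injected in both eyes, and the labels do not tie a library to an animal, so p-values measure the spread between these libraries, which may be partly technical. The library names in the sample descriptions carry one prefix in all saline samples and another in all microbead samples, while the sample titles run on in one series. What the prefix marks is not stated, and it cannot be told apart from the injection. Saline libraries held 36085737 to 46481382 counts and microbead libraries 13574949 to 19834366. Mitochondrial genes took 3.19% to 3.57% of counts in saline and 8.90% to 10.6% in microbead retina. Their part in the differences below was not tested. Saline replicate 1 stood apart in the marker genes of several cell types, and saline replicate 3 in those of pigment epithelium and lens. Results of *Fxyd1*, *Fxyd2*, *Fxyd5* and *Fxyd6* are given with all libraries and with 1 library left out at a time.

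The sodium pump (Na/K-ATPase) exports sodium and imports potassium at the expense of ATP, and so maintains the gradients on which excitability depends. It consists of a catalytic alpha subunit and a glycosylated beta subunit. An FXYD protein, which crosses the membrane a single time, can join this pair and tune its affinity for sodium and potassium in a manner that depends on the tissue. The family is named for a short motif (phenylalanine, any residue, tyrosine, aspartate) that lies just outside the membrane. In neural tissue such regulators are found in both neurons and glia.

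The motif is what makes these genes a family, and its coding sequence is therefore shown for every member. Each line holds 75 coding bases, 5′ to 3′, of the principal transcript in GENCODE vM21 (GRCm38). Capitals mark the 4 codons of the motif.
Fxyd1: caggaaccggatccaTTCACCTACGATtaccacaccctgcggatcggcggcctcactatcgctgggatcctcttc
Fxyd2: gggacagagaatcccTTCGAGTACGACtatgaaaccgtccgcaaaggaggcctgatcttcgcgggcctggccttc
Fxyd3: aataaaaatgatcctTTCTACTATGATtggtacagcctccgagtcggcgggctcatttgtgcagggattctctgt
Fxyd5: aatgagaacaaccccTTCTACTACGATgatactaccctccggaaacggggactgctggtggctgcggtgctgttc
Fxyd6: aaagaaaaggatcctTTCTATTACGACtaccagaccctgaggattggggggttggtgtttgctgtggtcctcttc
Fxyd7: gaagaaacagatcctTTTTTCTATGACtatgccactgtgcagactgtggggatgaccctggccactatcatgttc

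In all 6 members a proline codon stood directly before the motif. In all 6 an intron also interrupted the motif at the same place, after its base 10 and hence within the aspartate codon. The length of that intron ranged from 102 bases in *Fxyd5* to 2345 bases in *Fxyd7*. Across the 75 bases, *Fxyd1* and *Fxyd6* were the most alike pair of members (69.3% of bases identical), and *Fxyd3* and *Fxyd7* the least alike (48%). *Fxyd5* encoded the longest principal protein, with 178 residues and its motif at residues 135 to 138. The other members encoded 64 residues (*Fxyd2*) to 94 residues (*Fxyd6*), with the motif beginning at residue 17 to 30. Outside *Fxyd3*, no stretch of 100 bases in a member's transcripts occurred in a transcript of another gene.

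The members lay in 2 clusters. On chromosome 7, *Fxyd5* (chr7:31032722-31042481), *Fxyd7* (chr7:31042513-31051467), *Fxyd1* (chr7:31051678-31057199) and *Fxyd3* (chr7:31068172-31076704) occupied 43.982 kb, all on the minus strand. *Fxyd5* and *Fxyd7* were separated by 32 bases, and *Fxyd7* and *Fxyd1* by 211 bases. On chromosome 9, *Fxyd6* (chr9:45370185-45396159) and *Fxyd2* (chr9:45399669-45410278) occupied 40.093 kb on the plus strand, 3510 bases apart. *Fxyd3* overlapped *Lgi4*, a secreted protein of Schwann cells, which lies on the opposite strand and shares 2059 exonic bases with it.

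**Figure D1:**
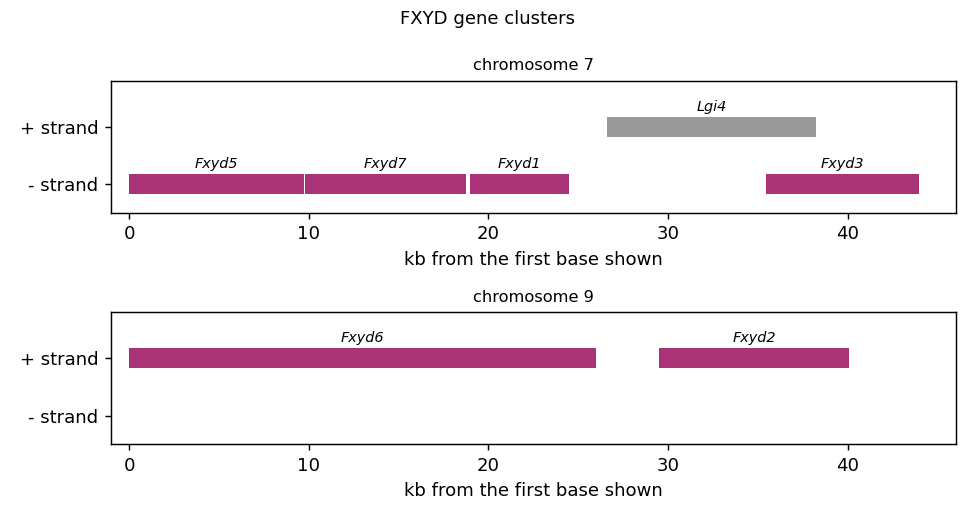
Positions of the FXYD genes (purple) and of *Lgi4* (grey) on chromosome 7 (top) and chromosome 9 (bottom), in kb from the first base of each cluster, with the strand on the vertical axis. The 4 genes of chromosome 7 span 43.982 kb and the pair on chromosome 9 spans 40.093 kb.

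All 6 members had higher fitted levels in microbead than in saline retina, but the size of the difference varied widely and 1 of the 6, *Fxyd2*, passed the threshold. *Fxyd2*, *Fxyd5* and *Fxyd1* showed the larger differences with no overlap between the groups, whereas the groups overlapped for *Fxyd3*, *Fxyd7* and *Fxyd6*. Levels are given as CPM, the counts of a gene per 1000000 counts of the scaled library, and log2 fold changes are microbead over saline with their standard error (SE) and 95% interval. The test was edgeR's quasi-likelihood test, two-sided, with p adjusted by the Benjamini-Hochberg method over all 17707 genes, and a gene was called at an adjusted p under 0.05. By this rule 12.8% of all tested genes were called, and 6.46% were called higher in microbead retina. Because whole retina was sequenced, a change in the number of cells of a type and a change in RNA per cell cannot be told apart.

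*Fxyd1* encodes phospholemman, a target of protein kinases A and C that is best known from heart and skeletal muscle. It was measured at 56.7, 24.2 and 33.4 CPM in the 3 saline libraries and at 78.0, 71.8 and 65.7 CPM in the 3 microbead libraries. Every microbead library was above every saline library, and saline replicate 1 was the closest to them. The mean was 38.1 ± 16.8 CPM (SD, n = 3) in saline and 71.8 ± 6.14 CPM (SD, n = 3) in microbead retina. The log2 fold change was 0.91 (SE 0.28, interval 0.28 to 1.55), which missed the threshold (edgeR adjusted p = 0.0624). Without saline replicate 1 it was 1.32 and passed (edgeR adjusted p = 0.00965). With any other single library left out it was 0.67 to 0.97 and missed (edgeR adjusted p between 0.122 and 0.181).

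*Fxyd5* encodes dysadherin, whose long extracellular part sets it apart from the rest of the family and which is known to weaken adhesion between epithelial cells. Saline libraries held 8.95, 3.69 and 2.94 CPM and microbead libraries 20.3, 12.7 and 9.74 CPM. Again the groups did not overlap, saline replicate 1 was the highest of its group, and microbead replicate 1 was the highest of all. Means were 5.19 ± 3.28 CPM and 14.2 ± 5.43 CPM (SD, n = 3 each), a ratio of 2.74. The log2 fold change was 1.46 (SE 0.44, interval 0.47 to 2.45), just short of the threshold (edgeR adjusted p = 0.0591). Without saline replicate 1 it was 2.10 and passed (edgeR adjusted p = 0.00979). With any other single library left out it was 1.11 to 1.66 and missed (edgeR adjusted p between 0.106 and 0.178).

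*Fxyd2* encodes the gamma subunit of the kidney pump. It rose from 0.505, 0.415 and 0.456 CPM in saline to 1.39, 1.30 and 1.49 CPM in microbead retina. The libraries of each group lay close together and far from those of the other group, with means of 0.459 ± 0.0450 and 1.39 ± 0.0973 CPM (SD, n = 3 each) and a ratio of 3.04. The log2 fold change was 1.60 (SE 0.46, interval 0.58 to 2.62; edgeR adjusted p = 0.0487). These values rest on few reads, namely 19, 20 and 16 counts in saline and 27, 18 and 23 in microbead libraries. The counting error of such counts is 19.2% to 25% per library, whereas the coefficient of variation between libraries was 9.81% in saline and 6.98% in microbead retina. The replicates thus lay closer together than counting error alone gives on average. The call was lost when any single library was left out, with edgeR adjusted p between 0.0814 and 0.195.

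*Fxyd3*, known as Mat-8 and found mainly in epithelia, was as scarce as *Fxyd2*, with 9 to 38 counts per library. Its levels were 1.01, 0.353 and 0.485 CPM in saline and 1.34, 1.37 and 0.585 CPM in microbead retina. Microbead replicate 3 lay below saline replicate 1, so the groups overlapped. The log2 fold change was 0.84 (SE 0.59, interval -0.48 to 2.16; edgeR adjusted p = 0.363). Of its 100-base stretches, read on either strand, 37.4% also occurred in transcripts of another gene, and whether counting used strand is not given in the sources used here. Reads of *Fxyd3* and of its overlapping neighbor *Lgi4* may therefore not be separable. *Lgi4* itself stood at 7.38, 4.65 and 4.54 CPM in saline and 0.823, 5.05 and 4.09 CPM in microbead retina (edgeR adjusted p = 0.388). Microbead replicate 1, the lowest for *Lgi4* at 16 counts, held 26 counts of *Fxyd3*. Whether reads of either gene bear on the count of the other was not tested.

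*Fxyd6*, or phosphohippolin, is a family member found in brain. Saline libraries held 59.7, 69.0 and 107 CPM and microbead libraries 90.6, 91.2 and 93.0 CPM. The microbead libraries agreed to within a few CPM and fell inside the range of the saline libraries, of which replicate 3 was the highest of all. Means were 78.5 ± 24.8 and 91.6 ± 1.24 CPM (SD, n = 3 each). The log2 fold change was 0.22 (SE 0.22, interval -0.27 to 0.72; edgeR adjusted p = 0.528). It was 0.06 without saline replicate 1 and 0.51 without saline replicate 3 (edgeR adjusted p = 0.886 and 0.112), the extremes when 1 library was left out.

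*Fxyd7* is expressed mainly in brain. It stood at 7.78, 10.4 and 12.6 CPM in saline and 13.7, 10.4 and 15.3 CPM in microbead retina. Microbead replicate 2 overlapped the saline libraries, while the other microbead libraries were above all of them. The log2 fold change was 0.36 (SE 0.26, interval -0.22 to 0.94; edgeR adjusted p = 0.373). The intervals for *Fxyd6*, *Fxyd7* and *Fxyd3* include both a decrease and an increase.

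**Figure D2:**
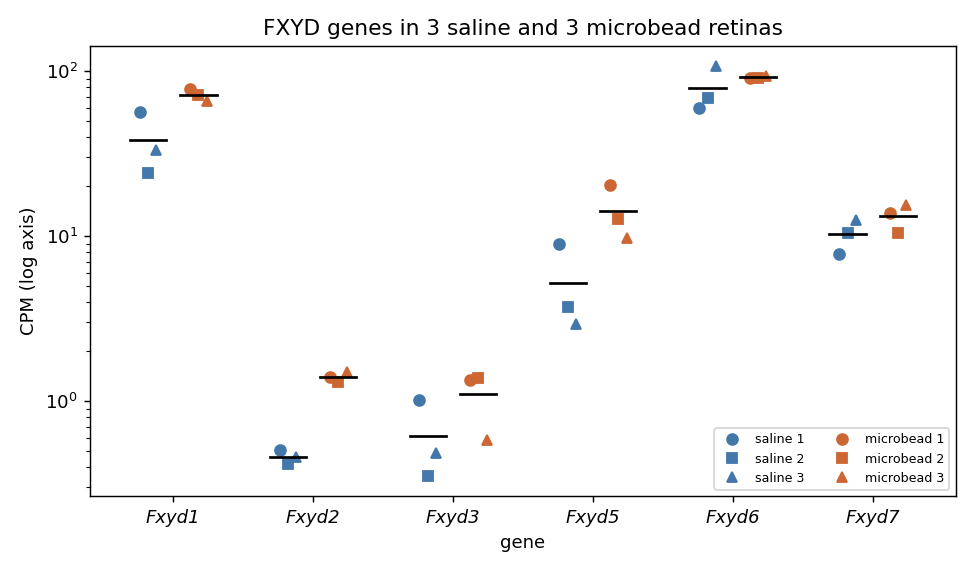
Levels of the 6 FXYD genes in CPM (log axis) for each saline (blue) and microbead (orange) library; marker shape gives the replicate number, which is only a name, and bars are group means. The microbead libraries lie above all saline libraries for *Fxyd1*, *Fxyd2* and *Fxyd5*, and the groups overlap for *Fxyd3*, *Fxyd6* and *Fxyd7*.

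Every microbead library exceeded every saline library for 3 of the 6 members (*Fxyd1*, *Fxyd2* and *Fxyd5*), as it did for 18.8% of all tested genes. An exact permutation test of any single gene could not go below p = 0.1 with 3 libraries per group. The fitted log2 fold change was positive for 6 of 6 members with a median of 0.88. Of all tested genes, 47.9% were positive and their median was -0.03. *Fxyd4*, a further family gene that was tested but not on the list, had a log2 fold change of -0.66. *Fxyd1*, *Fxyd2* and *Fxyd5* were called higher by DESeq2 (3 of 6 members, against 8.58% of all genes with an adjusted p). They were also called higher by limma-voom (3 of 6, against 6.62%). Without saline replicate 1, edgeR called 2 of 6 members higher (*Fxyd1* and *Fxyd5*), against 7.83% of all genes. With any other single library left out, edgeR called 0 of 6 members and 46 to 1480 of all genes. The count of members called therefore depended on the test and on which libraries were included. The direction did not in any setting tried.

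**Figure D3:**
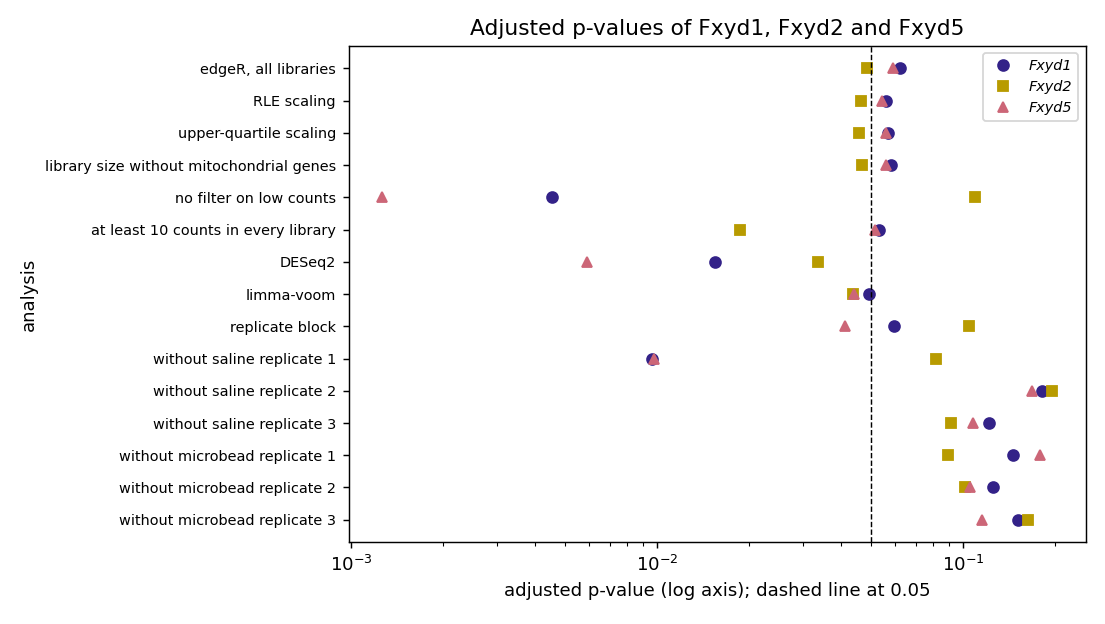
Adjusted p-values (log axis) of *Fxyd1* (circles), *Fxyd2* (squares) and *Fxyd5* (triangles) under each analysis, with the threshold of 0.05 dashed. With edgeR and all libraries the genes lie at 0.0624, 0.0487 and 0.0591, close to either side of the threshold.

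Levels of different genes were compared per kb of exon (the union of annotated exons), a scale on which longer genes do not appear higher for their length alone. In saline retina the leading members were *Fxyd6* (19.1 ± 6.05 CPM per kb), *Fxyd1* (17.4 ± 7.67) and *Fxyd7* (14.8 ± 3.47; SD, n = 3 each), and their ranges overlapped. *Fxyd5* was well below them at 1.24 ± 0.781 CPM per kb. *Fxyd3* (0.127 ± 0.0716) and *Fxyd2* (0.115 ± 0.0112) were lowest and overlapped. In microbead retina *Fxyd1* led on this scale with 32.9 ± 2.81 CPM per kb and did not overlap *Fxyd6* (22.3 ± 0.301). *Fxyd6* and *Fxyd7* (19.0 ± 3.63) did overlap. *Fxyd5* followed with 3.40 ± 1.30, then *Fxyd2* with 0.348 ± 0.0243 and *Fxyd3* with 0.226 ± 0.0918 CPM per kb, which did not overlap each other. Over all libraries *Fxyd1* was at percentile 89.9 of the tested genes on this scale, *Fxyd6* at 87.4 and *Fxyd7* at 83.9. *Fxyd5* was at 39.0, *Fxyd2* at 6.53 and *Fxyd3* at 4.44. The order depends on the exon lengths used. Without division by length, *Fxyd6* was above *Fxyd1* in every microbead library (90.6, 91.2 and 93.0 against 78.0, 71.8 and 65.7 CPM).

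Summed per kb, the 6 members reached 54.2, 44 and 60.3 CPM per kb in saline and 83.0, 73.7 and 77.7 in microbead retina, a ratio of 1.48 between the means. *Fxyd1* made up 47.9%, 25.2% and 25.4% of this sum in saline libraries and 43.0%, 44.6% and 38.7% in microbead libraries. In this share saline replicate 1 thus lay above every microbead library and far above the rest of its own group. In the share of *Fxyd2* it stood with its own group. That share was 0.233%, 0.235% and 0.189% in saline libraries and 0.418% to 0.480% in microbead libraries. The share of *Fxyd6* was 26.8%, 38.2% and 43.0% in saline and 26.6%, 30.1% and 29.1% in microbead retina. *Fxyd7* took 20.4% to 34.2% over all libraries, with overlapping groups. These shares also depend on the exon lengths used. Of the summed CPM in microbead retina, *Fxyd6* took a mean of 47.5%, *Fxyd1* 37.1% and *Fxyd7* 6.82%.

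**Figure D4:**
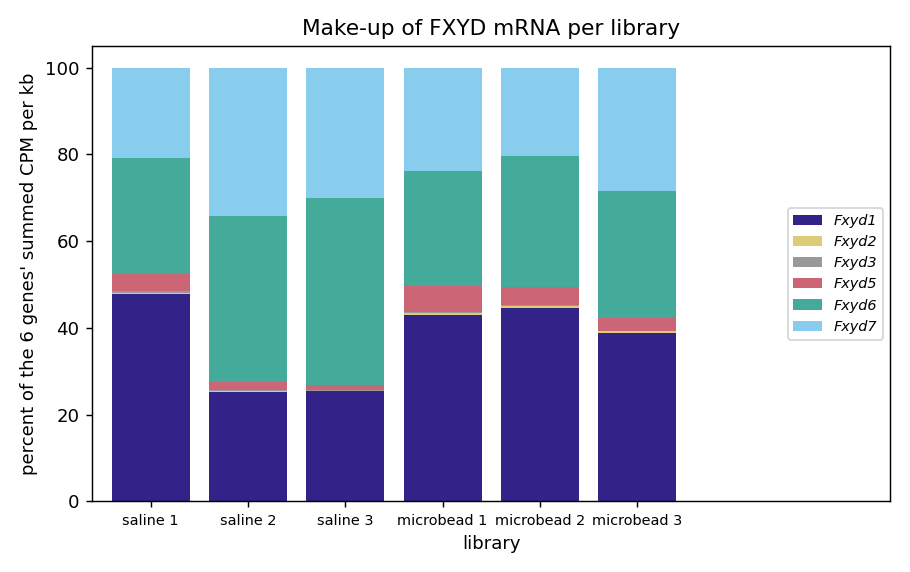
Share of each FXYD gene in the summed CPM per kb of the 6 genes, in percent, for each library. *Fxyd1* (dark blue) takes 47.9% in saline replicate 1, 25.2% and 25.4% in the other saline libraries and 38.7% to 44.6% in microbead libraries.

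*Fxyd4*, a family member of the kidney and colon that was not on the list, was near the limit of detection. It had 21, 17 and 5 counts in saline and 0, 9 and 1 in microbead libraries, with a log2 fold change of -0.66 (SE 1.08; edgeR adjusted p = 0.717). Other neighbors of the clusters gave no call. *Dscaml1*, a neuronal adhesion molecule that follows *Fxyd2*, had a log2 fold change of 0.40 (edgeR adjusted p = 0.244), and *Fam187b* before *Fxyd5* had 1.09 (edgeR adjusted p = 0.244) at levels of 0.257 to 1.23 CPM. *Hpn* and *Tmprss13*, at most 13 counts per library, were not tested.

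The pump's beta subunits, which carry the enzyme to the membrane and complete it, did not move as a group. *Atp1b2*, the glial adhesion molecule AMOG that is also found in photoreceptors, was by far the most abundant. It rose from 1957, 1722 and 1941 CPM in saline to 2744, 2865 and 3112 CPM in microbead retina, with no overlap (log2 fold change 0.63, SE 0.17, edgeR adjusted p = 0.0420). *Atp1b1*, the common neuronal form, was at 206, 428 and 554 CPM and then 301, 325 and 311 CPM. Its saline libraries enclosed the microbead libraries, and the log2 fold change was -0.34 (edgeR adjusted p = 0.479). *Atp1b3* was at 86.6, 103 and 142 CPM in saline and 117, 70.0 and 60.1 CPM in microbead retina (log2 fold change -0.43, edgeR adjusted p = 0.324). *Atp1b4*, a gene of the same family known from muscle, had at most 4 counts in any library and was not tested.

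**Figure D5:**
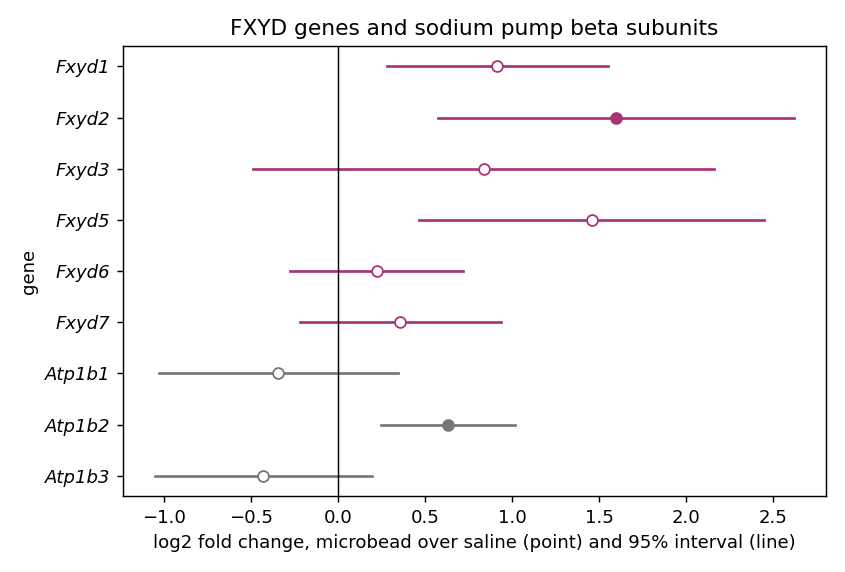
Log2 fold changes, microbead over saline, of the 6 FXYD genes (purple) and 3 beta subunits (grey), with 95% intervals as lines; filled points passed an edgeR adjusted p of 0.05. *Fxyd2* (1.60) and *Atp1b2* (0.63) are filled, and all FXYD points lie to the right of 0.

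Of 12 other partners of the pump (among them the Nkain proteins, agrin, retinoschisin, ankyrins and kinases that act on it), 1 was called lower and 0 higher. The called gene was *Sik1*, a salt-inducible kinase, which fell from 19.1, 16.1 and 15.4 CPM in saline to 7.21, 8.59 and 10 CPM in microbead retina with no overlap (log2 fold change -0.97, SE 0.22, edgeR adjusted p = 0.0260). In this list 11 of 12 fitted values were negative, with a median of -0.46. Of the kinase and phosphatase subunits that act on phospholemman and its relatives, 7 were tested, and *Ppp1ca* was not analysed here. edgeR called 0 of the 7, with 4 at an unadjusted p under 0.05, and DESeq2 and limma-voom called 0 as well. Of 14 carriers that couple transport to sodium or share its gradient, edgeR called 0, with 3 at an unadjusted p under 0.05, while DESeq2 called 1 and limma-voom 0. Over these 36 tested pump genes that are not FXYD genes, 6 had positive log2 fold changes and the median was -0.34. For the members 6 of 6 were positive, with a median of 0.88. *Fxyd4*, which is not among these members, was at -0.66. Members and lists were chosen with earlier results of these data known.

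Marker genes of the cell types that a retina preparation may hold moved in several ways beside the members, and their part in the results was not tested. The summed level of 8 leukocyte markers was 43.9, 9.87 and 10.1 CPM in saline and 40.6, 39.6 and 3.83 CPM in microbead libraries. Saline replicate 1 was the highest of its group for *Fxyd1*, *Fxyd5* and the leukocyte sum. Microbead replicate 3 had the lowest leukocyte sum of all, and its *Fxyd1* and *Fxyd5* levels were above those of every saline library. Whether leukocyte content bears on these levels was not tested. Ganglion cell markers (12 genes) summed to 462, 1228 and 1564 CPM in saline and 1462, 1078 and 1319 CPM in microbead retina, so that saline replicate 1 was the lowest of all; edgeR called 0 of them, with 2 at an unadjusted p under 0.05, and DESeq2 and limma-voom called 0.

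Müller glia markers (12 genes) summed to 6934 to 10522 CPM in saline and 5410 to 6749 CPM in microbead retina, with 4 called lower (*Crym*, *Dkk3*, *Sox9* and *Vim*) and 0 higher. Of 6 astrocyte markers, which summed to 98.1 to 122 CPM in saline and 102 to 114 CPM in microbead retina, *Aldh1l1* was called lower. Endothelial markers (8 genes) summed to 467 to 669 CPM and 291 to 441 CPM, with *Cldn5*, *Esam* and *Flt1* called lower, and 7 pericyte and smooth muscle markers to 125 to 199 CPM and 102 to 163 CPM, with *Pdgfrb* called lower. The called markers in these lists were lower, whereas *Fxyd1*, *Fxyd2* and *Fxyd5* had higher fitted levels. Fitted log2 fold changes were positive for 0 of 12 Müller glia and 4 of 6 astrocyte markers. They were positive for 1 of 8 endothelial and 0 of 7 pericyte and smooth muscle markers. What these markers have to do with the members was not tested.

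Pigment epithelium markers (8 genes) summed to 12.3, 56.8 and 245 CPM in saline and 107 to 127 CPM in microbead retina, and lens markers (5 of 6 genes, since *Lim2* was not analysed here) to 19.0, 1.41 and 244 CPM in saline and 0.867 to 1.62 CPM in microbead retina. Saline replicate 3, the highest library for *Fxyd6*, was the highest for both lists. Epithelial and corneal markers, of interest for *Fxyd3*, summed to 53.7 to 73.6 CPM in saline and 37.8 to 60.5 CPM in microbead retina. *Krt18* made up most of this sum in every library. *Krt14* had 3, 302 and 105 counts in saline and 0 in each microbead library, and *Krt5* 5, 181 and 96 against 0, 2 and 1. Skeletal muscle markers, of interest for *Fxyd1*, summed to 5.31 to 5.45 CPM and 8.96 to 14.7 CPM. Here edgeR called *Mylpf* higher (log2 fold change 1.31) but not *Acta1* (-0.06) or *Ckm* (0.74). DESeq2 called 3 of these genes and limma-voom 1. Schwann cell and oligodendrocyte markers summed to 60.6 to 72.4 CPM and 48.5 to 53.4 CPM, with *Mbp* called lower. Rod markers, the bulk of the tissue, summed to 70160 to 93596 CPM and 62238 to 77131 CPM, with *Pdc* called higher and *Nrl* lower, and so matched the labelled tissue. For bipolar, amacrine, pigment epithelium, lens, epithelial and erythrocyte markers edgeR called 0 genes, with 2, 3, 0, 0, 1 and 0 at an unadjusted p under 0.05. DESeq2 called 1, 2, 0, 1, 2 and 0 of these, respectively, and limma-voom 0 in each. For leukocyte markers edgeR, DESeq2 and limma-voom called 0, and 0 had an unadjusted p under 0.05. Of the lens, epithelial, leukocyte and skeletal muscle markers, edgeR and limma-voom tested 2 of 5, 3 of 8, 5 of 8 and 3 of 6, respectively. The rest did not pass the filter on low counts, so the edgeR and limma-voom counts say nothing about them.

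For each member the gene with the most similar pattern was sought among the tested genes with a mean of at least 10 CPM, by Pearson's r of log2(CPM + 1) over the 6 libraries. These values describe 6 libraries that share group and, in part, depth, and each is the highest of at least 10350 candidates. The closest gene was *Cep41* for *Fxyd1* (r = 0.982), *Rogdi* for *Fxyd2* (0.998), *B2m* for *Fxyd3* (0.981), *Borcs8* for *Fxyd5* (0.998), *Ptgds* for *Fxyd6* (0.971) and *Wbscr27* for *Fxyd7* (0.985). *Ptgds*, a prostaglandin synthase, was followed for *Fxyd6* by *Ttr*, one of the 8 pigment epithelium markers (r = 0.966).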

How the data were processed

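Per the labels and the study's methods, reads of a stranded poly(A) library kit were aligned with STAR (2.5.3a) to GRCm38 (p5) and counted per gene with featureCounts (1.15.2); strand and multi-mapping settings are not given in the sources used here. The authors deposited raw counts per gene and library, which were used. The deposited table also holds the authors' own DESeq2 comparison (mean normalized signal, log2 fold change, fold ratio, p-value, adjusted p-value and a mark of the genes called), which was not used.

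Genes were kept with edgeR's filterByExpr (minimum count 10, minimum total 15), scaled by TMM and tested with edgeR's quasi-likelihood test (edgeR 4.0.16, limma 3.58.1, R 4.3.3) on group alone. Alternatives were DESeq2 1.42.0 and limma-voom as the test, RLE or upper-quartile scaling, mitochondrial genes left out of the library size, a filter of 10 counts in each library or none, a replicate block, an adjusted p under 0.01, and omitting 1 library at a time. All 6 members exceeded the filter's level of 0.358 CPM, set on library sizes before scaling, in all 6 libraries. No libraries were copies of each other. A count of 3 corresponds to 0.0645 to 0.221 CPM.

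The members and lists were chosen with earlier results of these data known. Genes named were the members, other Fxyd genes, the beta subunits, listed pump genes past the threshold, overlapping or nearest coding neighbors, and the most correlated gene; *Ttr* and called markers were named after their values were seen. Sequences, exon lengths and positions came from GENCODE vM21, whereas the authors counted reads on GENCODE vM12 (both GRCm38), so levels per kb divide counts by exon lengths of a later annotation. The list of microglia markers is not reported here.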

Additional observations from a re-analysis of the deposited data

How the results depend on the processing

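No log2 fold change of the 6 FXYD genes changed sign in any alternative in which the gene was tested, and *Fxyd3*, *Fxyd6* and *Fxyd7* missed the threshold in all of them (*Fxyd3* was not tested with at least 10 counts in every library). RLE scaling, upper-quartile scaling, library size without mitochondrial genes and the stricter filter kept 1 member called, and moved the median of all genes by under 0.1 on the log2 scale. Without a filter, 2 members, 8 of the other pump genes (against 2) and 3720 genes (against 2261) were called; *Fxyd1* (0.87) and *Fxyd5* (1.41) passed and *Fxyd2* (1.55) did not. DESeq2 called 3 members, 4 other pump genes and 3556 genes, with *Fxyd1* at 0.92 and *Fxyd5* at 1.47. With limma-voom 3 members were called, with *Fxyd1* at 1.01 and *Fxyd5* at 1.60. At an adjusted p under 0.01, edgeR called 0 members, 0 other pump genes and 87 genes. Leaving out 1 library at a time gave 0 to 2 members, 0 to 5 other pump genes and 46 (without microbead replicate 3) to 2621 genes; log2 fold changes ran from 0.67 to 1.32 for *Fxyd1*, 1.52 to 1.67 for *Fxyd2* and 1.11 to 2.10 for *Fxyd5*. The cause of these changes was not tested, beyond the smaller number of samples in the last case. Libraries of the same number did not deviate together (correlations of -0.02, 0.19 and -0.003), and not every library correlated best with its own number, so the numbers were not taken as pairs. With the number as a replicate block, edgeR called 0 other pump genes and 905 genes, and *Fxyd5* (1.56) passed while *Fxyd2* (1.60) did not. Depth limits *Fxyd2* and *Fxyd3*, whose counts were 9 to 38 per library.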
